A study of Mus musculus with 4 samples.

Results

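Interferon-responding endothelial cells were followed here as 256 cell barcodes among 21410 barcodes from mouse retina, and among 3388 barcodes that carried endothelial transcripts. They were chosen by a rule on raw counts of unique molecular identifiers (UMIs, each a captured RNA molecule). Barcodes with under 500 UMIs, under 300 genes or more than 20% of UMIs from mitochondrial transcripts were not used. An endothelial barcode had 4 or more UMIs over at least 2 of the genes Cldn5, Cdh5, Pecam1 and Flt1, at most 1 UMI of the pericyte genes Pdgfrb, Kcnj8 and Abcc9, and at most 2 UMIs of the Müller glia gene Rlbp1. A member also had 4 or more UMIs over at least 2 of the 5 interferon-induced genes Ifit1, Ifit3, Isg15, Rsad2 and Usp18. Barcodes with venular genes (at least 4 UMIs over at least 2 of Lcn2, Lrg1, Ackr1 and Serpina3n) or arterial genes (at least 3 UMIs over at least 2 of Bmx, Sema3g, Hey1, Stmn2 and Egfl8) were left out. The barcodes that remained are called members below. The 2438 endothelial barcodes that did not meet the interferon rule, with the same venular and arterial barcodes left out, are called other endothelial barcodes.

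The study profiled retinal cells enriched with CD31 microbeads by droplet sequencing of transcript 3′ ends, in 2 Diabetic and 2 Control libraries. CD31, the product of Pecam1, is carried by endothelial cells and some leukocytes. The labels name the disease state, the tissue and the bead enrichment, and give no diabetes model, duration, strain, sex or age. They do not say that replicates came from separate animals, so that p-values measure the spread between these libraries, which may be technical.

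Members numbered 117 in Diabetic 1, 61 in Diabetic 2, 51 in Control 1 and 27 in Control 2. The libraries held 58792636, 41239892, 54901304 and 29792902 UMIs in that order, and any pair of libraries shared between 5 and 9 barcode sequences. Members were deeper than other endothelial barcodes in every library. Their median was 3779 UMIs against 2476 in Diabetic 1, 5100 against 3150.5 in Diabetic 2, 3558 against 2656 in Control 1, and 5745 against 2645 in Control 2. In Control 2, 1 member held 60139 of the 235015 UMIs of all members and weighs on that library's levels without the rod limit described below. A rule that asks for a number of UMIs is more easily met by a deeper barcode, so the choice favours deep barcodes as well as induced ones.

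Interferons are secreted proteins that signal through receptors at the cell surface to JAK kinases and STAT transcription factors. The type I form assembles a complex that contains STAT2 and IRF9 and binds the interferon-stimulated response element (ISRE) in promoters, whereas type II interferon acts mainly at gamma-activated sites (GAS). The induced genes encode antiviral proteins that bind or degrade foreign RNA, the ubiquitin-like modifier ISG15, GTPases that act on vacuoles of pathogens, and parts of antigen presentation, and the vascular endothelium is one of the tissues that carries interferon receptors.

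The promoters of the genes that define the members are shown because they hold the sequence motif of this pathway. The RefSeq promoter table (GRCm38.p6, 250 bases before to 50 bases after the start) had an entry for 4 of the 5 rule genes and none for Usp18. Ifit1 and Ifit3 encode proteins of the IFIT family that bind foreign RNA, Isg15 the ubiquitin-like modifier, Rsad2 the antiviral enzyme viperin, and Usp18 the protease that removes ISG15. The sequences below run 5′ to 3′ on the strand of the gene, and capitals mark an ISRE core, searched on both strands as GAAANNGAAA or TTTCNNTTTC, where matches can overlap.
Ifit1 (GRCm38.p6 chr19:34640639-34640938, plus strand): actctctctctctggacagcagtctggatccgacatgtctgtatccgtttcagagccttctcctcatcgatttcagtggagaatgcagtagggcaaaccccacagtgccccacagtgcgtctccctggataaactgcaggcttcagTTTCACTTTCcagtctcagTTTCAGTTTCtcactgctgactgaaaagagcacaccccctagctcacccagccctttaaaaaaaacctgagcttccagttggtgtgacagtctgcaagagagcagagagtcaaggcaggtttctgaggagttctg
Ifit3 (GRCm38.p6 chr19:34583279-34583578, plus strand): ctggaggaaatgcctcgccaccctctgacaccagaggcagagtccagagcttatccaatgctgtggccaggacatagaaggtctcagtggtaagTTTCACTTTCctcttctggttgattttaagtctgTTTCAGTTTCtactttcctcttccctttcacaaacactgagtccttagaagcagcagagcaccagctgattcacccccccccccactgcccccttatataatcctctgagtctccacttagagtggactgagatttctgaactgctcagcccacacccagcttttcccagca
Isg15 (GRCm38.p6 chr4:156200769-156201068, minus strand): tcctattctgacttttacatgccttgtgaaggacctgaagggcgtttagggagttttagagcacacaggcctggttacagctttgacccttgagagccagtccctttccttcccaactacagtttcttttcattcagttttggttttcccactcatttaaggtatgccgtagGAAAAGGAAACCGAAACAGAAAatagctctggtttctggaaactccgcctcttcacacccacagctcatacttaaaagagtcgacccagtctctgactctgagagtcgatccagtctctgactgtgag
Rsad2 (GRCm38.p6 chr12:26456403-26456702, minus strand): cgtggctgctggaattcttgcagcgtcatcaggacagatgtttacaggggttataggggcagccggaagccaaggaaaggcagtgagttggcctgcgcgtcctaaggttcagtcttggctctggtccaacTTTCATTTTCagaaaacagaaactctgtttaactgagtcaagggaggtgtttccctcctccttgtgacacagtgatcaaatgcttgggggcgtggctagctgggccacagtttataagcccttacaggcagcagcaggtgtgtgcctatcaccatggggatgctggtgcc
Each of these 4 promoters held at least 1 ISRE core, whose first base lay 104 and 85 bases before the start in Ifit1, 156 and 122 before it in Ifit3, 78, 72 and 66 before it in Isg15, and 120 before it in Rsad2. An ISRE core was present in the promoters of 3.99% of all 27025 genes in the table. The GAS core, searched as TTCNNNGAA (its own reverse complement), was in none of the 4 and in 9.55% of all genes. These matches describe letters in a window and show no binding.

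The genes that chose the members are given as a description, with no test. Summed over members, Isg15 stood at 708 counts per 1000000 UMIs (CPM) in Diabetic 1, 617 in Diabetic 2, 406 in Control 1 and 443 in Control 2. Ifit1 stood at 431, 495, 485 and 366 CPM in the same order of libraries. Ifit3 stood at 179 and 342 CPM in the Diabetic libraries and 199 and 166 CPM in the Control libraries. Isg15 was higher in both Diabetic libraries than in either Control library, whereas the groups overlapped for Ifit1 and Ifit3. With 2 libraries per group, an order without overlap is common among genes that do not differ. Rsad2 was at 202 and 261 CPM in Diabetic members and 307 and 179 CPM in Control members, and Usp18 at 76.6 and 120 CPM in Diabetic members and 91.2 and 76.6 CPM in Control members. These 2 genes also overlapped between groups. Isg15 made up 44.3% and 33.6% of the rule-gene UMIs of Diabetic members and 27.3% and 36.0% of those of Control members.

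Most members stood close to the threshold. The median sum of the 5 genes, called the rule score below, was 7 UMIs in Diabetic 1, 8 in Diabetic 2, 6 in Control 1 and 8 in Control 2. The highest scores were 47, 88, 16 and 25 in the same libraries. Just inside the threshold, 23, 14, 17 and 4 members had a score of exactly 4. Just outside it, 47, 28, 31 and 8 other endothelial barcodes had a score of exactly 3, and 14, 2, 3 and 4 had 4 or more UMIs in a single gene. All 5 genes were detected together in 9 of 117 members in Diabetic 1, 8 of 61 in Diabetic 2, 5 of 51 in Control 1 and 4 of 27 in Control 2. A few barcodes carried much of the signal in some libraries: the 3 highest members held 10.1% of all rule-gene UMIs in Diabetic 1 and 29.4% in Diabetic 2, and 12.5% in Control 1 and 24.2% in Control 2.

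The label was checked against endothelial markers. Of 18 pan-endothelial markers (such as Tie1, Tek, Kdr and Egfl7, and including Cldn5 of the rule), the members held 15704 and 17430 CPM in the Diabetic libraries and 16006 and 13978 CPM in the Control libraries. The 17 capillary markers (such as the lipid transporter gene Mfsd2a and the glucose transporter gene Slc2a1) held 19897 and 20215 CPM in Diabetic members and 19685 and 17105 CPM in Control members. Venous markers reached 3575 and 4377 CPM in Diabetic members and 2745 and 2506 CPM in Control members, and arterial markers 1272 and 1679 CPM against 1227 and 945 CPM, after the choice had removed barcodes rich in several of them. The 17 markers of microglia and macrophages held between 41.5 and 353 CPM in members, and 1 member each of Diabetic 1 and Diabetic 2 had 2 or more UMIs over C1qa, C1qb, C1qc, Cx3cr1, P2ry12 and Tmem119. Erythrocyte transcripts were uneven, at 6903 and 58.4 CPM in Diabetic 1 and Diabetic 2 and at 10222 and 38.3 CPM in Control 1 and Control 2. The part of these transcripts in the results was not tested.

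The first question was how often endothelial barcodes carried the interferon rule and whether other retinal cells did so. Before the venular and arterial barcodes were left out, 10.5% of endothelial barcodes met the interferon rule in Diabetic 1, 14.9% in Diabetic 2, 10.1% in Control 1 and 15.04% in Control 2. Among rod photoreceptor barcodes, which should lack an endothelial program and share the suspension, 1 of 1744 met it in Diabetic 1 and none of 785, 1980 and 782 met it in Diabetic 2, Control 1 and Control 2 (exact 95% upper limits 0.469, 0.186 and 0.471%). The median depth was 2960, 3978, 2992 and 3578 UMIs in endothelial barcodes and 1899, 2643, 2106 and 3000 UMIs in rods. Endothelial barcodes were higher in 4 of 4 libraries, by a mean of 12.6 percentage points (exact paired permutation test, two-sided, p = 0.125, the smallest the design allows). The rule was chosen with earlier results of these data known, so the test adds no support and the values are a description. Rod barcodes also had to hold 0 UMIs of the 4 endothelial rule genes, whereas rod transcripts in endothelial barcodes were not limited. With every barcode thinned to 1000 UMIs and the threshold lowered to 2 UMIs over 2 genes, 5.69% and 6.45% of endothelial barcodes of the Diabetic libraries and 5.44% and 8.79% of those of the Control libraries met the rule, and no rod did. Thinning left out 173 and 56 shallower endothelial barcodes of the Diabetic libraries and 81 and 27 of the Control libraries. Müller glia, pericytes and microglia were few, with 1 Müller glia barcode of 59 meeting the rule in Diabetic 1, 1 pericyte of 21 and 1 microglial barcode of 20 in Diabetic 2, and none in the Control libraries. Müller glia barcodes were shallow, with medians of 909 to 978 UMIs, which makes a rule of 4 UMIs hard to meet. The 5 rule genes together stood at 171 and 77.7 CPM in Müller glia of the Diabetic and 86.8 and 25.98 CPM in those of the Control libraries, against 253 and 263 CPM in endothelial barcodes of the Diabetic and 216 and 382 CPM in those of the Control libraries. Pericytes stood at 18.3 CPM in Diabetic 1 and 1293 CPM in Diabetic 2, where 21 barcodes held 55 UMIs, and at 55.5 and 0 CPM in Control 1 and Control 2. Rods stood between 3.17 and 10.2 CPM. None of the 21 listed interferon genes themselves had a UMI in members or in other endothelial barcodes, and between 0 and 6 UMIs of them were found per library in all barcodes that passed the filters.

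Diabetic and Control libraries had overlapping shares of members when all endothelial barcodes were counted. Members made up 6.87% of endothelial barcodes in Diabetic 1 (exact Clopper-Pearson 95% interval 5.71 to 8.18%), 9.02% in Diabetic 2 (6.97 to 11.4%), 6.86% in Control 1 (5.15 to 8.93%) and 10.2% in Control 2 (6.80 to 14.4%). These intervals cover counting error only. The mean was 7.95% ± 1.52 in the Diabetic and 8.51% ± 2.32 in the Control libraries (SD, n = 2 each). The difference of -0.56 percentage points was smaller than either SD (exact permutation test, two-sided, p = 1, where the smallest possible is 0.333). The first replicate of each group was the lower one, and the sign of the difference turned to 1.08 points without Control 2 and to 0.52 points without Diabetic 1. Among endothelial barcodes with rod markers at most 1% of UMIs, a limit chosen after seeing the data, members made up 9.26% and 11.5% in the Diabetic and 13.40% and 13.37% in the Control libraries. There the groups did not overlap, and the difference was -3.01 points (exact permutation test, two-sided, p = 0.333, the smallest possible).

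**Figure D1:**
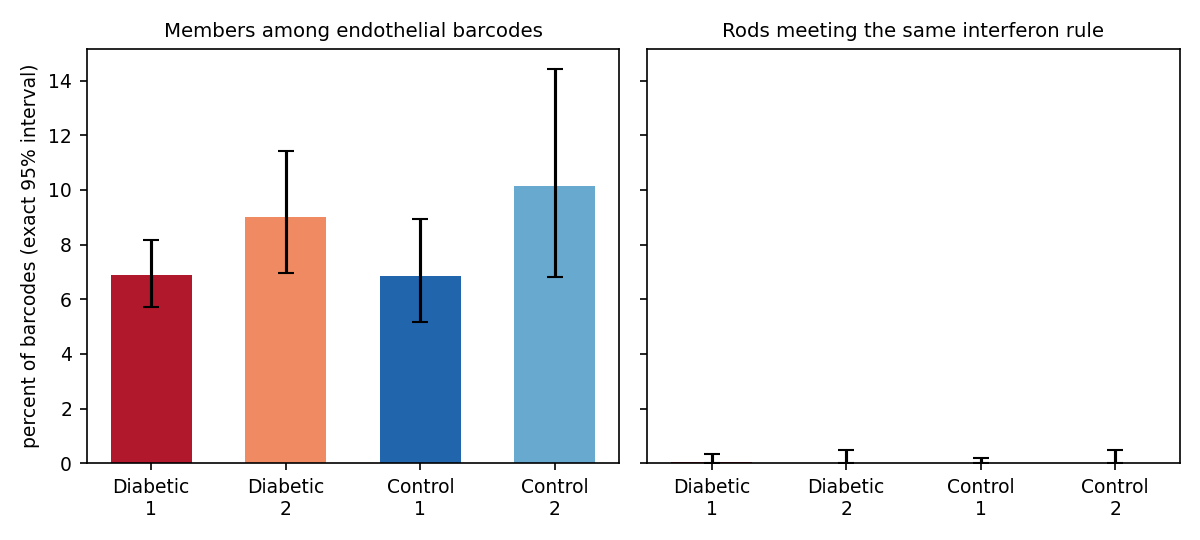
Percent of barcodes per library, with exact 95% intervals as error bars: members among endothelial barcodes (left panel) and rods that met the same interferon rule (right panel). Members made up 6.87% and 9.02% in the Diabetic libraries and 6.86% and 10.2% in the Control libraries, and 1 rod in all met the rule.

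The next comparison asked which other genes travelled with the 5 rule genes, by setting members against other endothelial barcodes of the same library. Because both classes came from thresholds on genes of the same barcodes, the counts describe what accompanies the rule. With UMIs summed per class and library and library as a block, edgeR's quasi-likelihood test called 1577 of 8899 genes higher in members (17.7%) and 1445 lower (16.2%), 34% in all, at a Benjamini-Hochberg adjusted p under 0.05. Rod transcripts moved with this comparison. The 12 rod markers held 12084 CPM in members and 48973 CPM in other endothelial barcodes of Diabetic 1, and 4327 and 41176 CPM in the same classes of Diabetic 2. They held 7630 CPM in members and 58611 CPM in other endothelial barcodes of Control 1, and 31547 and 45012 CPM in the same classes of Control 2. With other endothelial barcodes matched to members in depth, 1337 genes were higher and 1282 lower. Leaving out Diabetic 1 gave 967 calls and leaving out Diabetic 2 gave 1867. All 12 rod markers were called lower in members, and all 18 pan-endothelial markers were called higher. The 8 genes with the largest decreases were Gm20139, Mest, Gm11342, Rims2, Pde6h, Cspg5, Rp1 and Elfn1, of which Pde6h and Rp1 are photoreceptor genes.

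The comparison was therefore repeated, as an alternative chosen after seeing the data, with barcodes whose rod markers held at most 1% of UMIs. This left 88 members in Diabetic 1, 58 in Diabetic 2, 41 in Control 1 and 23 in Control 2, and 591, 294, 189 and 101 other endothelial barcodes. Of 6577 genes tested, 47 were higher in members (0.715%) and 13 lower (0.198%), 0.912% in all, and DESeq2 called 28 higher and 3 lower. DESeq2 gave no adjusted p for 2042 of these 6577 genes, and its 31 calls were all shared with edgeR. Of the 47 genes, 40 belonged to the interferon lists, and all 47 were also called higher with all barcodes. Of the 13 lower genes, 1 was also called lower with all barcodes. Leaving out 1 library gave between 35 and 76 calls, with 35 without Diabetic 2. Levels and fold changes below are from the barcodes with the rod limit unless stated otherwise.

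Antiviral effectors held the largest single fold changes. Ifit2, an RNA-binding protein of the IFIT family, was at 86.1 and 133 CPM in members and 14.1 and 21.8 CPM in other endothelial barcodes of the Diabetic libraries. In the Control libraries Ifit2 was at 53.1 and 79.8 CPM in members and 20.4 and 14.2 CPM in other endothelial barcodes. Members lay above the other barcodes in 4 of 4 libraries, with a log2 fold change of 2.36 ± 0.24 (SE, edgeR adjusted p = 9.4e-07). Oasl2, a relative of the oligoadenylate synthetases that sense double-stranded RNA, averaged 165 ± 9.24 CPM in members and 52.1 ± 7.41 CPM in other endothelial barcodes (SD, n = 4 each). Its log2 fold change was 1.65 ± 0.15. Rtp4, an interferon-induced binder of viral RNA, averaged 170 ± 23.8 CPM in members and 55.4 ± 8.89 CPM in other endothelial barcodes, a log2 fold change of 1.59 ± 0.16. The classes did not overlap for Oasl2 or Rtp4.

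Of 37 listed antiviral effectors, which include the 3 rule genes Ifit1, Ifit3 and Rsad2, 21 were tested, 12 were higher and none was lower. Their median log2 fold change was 0.93, against -0.00 over all genes. Beyond the genes above, these included Cmpk2 (1.48 ± 0.22), a mitochondrial nucleotide kinase next to Rsad2 on chromosome 12, and Eif2ak2 (1.17 ± 0.17), the kinase PKR that halts translation upon binding double-stranded RNA. Bst2 (0.94 ± 0.11), the membrane tether tetherin, and Zc3hav1 (0.93 ± 0.19), a zinc-finger antiviral protein, were also called. Ifitm3, which blocks entry of viruses at endosomes, stood at a high level in both classes, at 1928.5 and 2074 CPM in Diabetic members and 1308 and 1301 CPM in Control members, against 1299 and 1136 CPM in other endothelial barcodes of the Diabetic libraries and 1007 and 878 CPM in those of the Control libraries. Its log2 fold change was 0.58 ± 0.09 (adjusted p = 0.00021). Ifi27l2a, an interferon-induced mitochondrial protein gene, was not called (0.65 ± 0.29, adjusted p = 0.63), and its members were at 25.8 and 26.1 CPM in the Diabetic and 48.3 and 98.2 CPM in the Control libraries.

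Ifit3b had the largest fold change, at 2.67 ± 0.25, with 77.5 and 122 CPM in Diabetic members, 38.6 and 85.9 CPM in Control members, and 9.09 to 16.9 CPM in other endothelial barcodes. It is a near-identical copy of the rule gene Ifit3, so that reads may have been split between them and its rise is not independent of the rule. Ifit2, Ifit3, Ifit3b and Ifit1 lie side by side on chromosome 19, and GENCODE M21 on GRCm38 places Ifit2 at chr19:34550694-34576419 and Ifit1 at chr19:34640871-34650009. The Ifit3b promoter is shown beside that of Ifit3 above, since both held 2 ISRE cores 34 bases apart.
Ifit3b (GRCm38.p6 chr19:34607707-34608006, plus strand): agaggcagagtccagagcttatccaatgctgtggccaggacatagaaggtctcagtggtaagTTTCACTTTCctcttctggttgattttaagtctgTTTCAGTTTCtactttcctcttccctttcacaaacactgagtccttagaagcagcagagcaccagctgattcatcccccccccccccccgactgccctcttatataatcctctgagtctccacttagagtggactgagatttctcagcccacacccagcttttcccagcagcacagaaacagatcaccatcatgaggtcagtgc
The cores began 188 and 154 bases before the annotated start of Ifit3b.

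Interferon-inducible GTPases, which attack vacuoles that hold pathogens, were mostly higher in members. Of 16 listed genes 10 were tested, 8 were higher and none was lower, and the median change was 1.03 on the log2 scale. Gbp7, a guanylate-binding protein, was at 243 and 220 CPM in members and 106 and 93.6 CPM in other endothelial barcodes of the Diabetic libraries. In the Control libraries Gbp7 was at 261 and 221 CPM in members and 109 and 94.9 CPM in other endothelial barcodes. It was about equally high in the members of all 4 libraries (log2 fold change 1.20 ± 0.12, adjusted p = 6.9e-07). Iigp1, an immunity-related GTPase, was at 222 and 304 CPM in members and 104 and 79.9 CPM in other endothelial barcodes of the Diabetic libraries. In the Control libraries Iigp1 was at 106 and 92.1 CPM in members and 55.6 and 45.1 CPM in other endothelial barcodes. Members lay above the other barcodes of their own library each time (1.34 ± 0.15), and Diabetic members above Control members. Gbp3 (1.05 ± 0.14), Irgm1 (1.19 ± 0.20), Igtp (1.01 ± 0.21), Gbp4 (1.00 ± 0.16), Gbp9 (0.80 ± 0.19) and Gbp2 (1.20 ± 0.23) were called as well, Gbp2 and Gbp9 with higher members in 3 of 4 libraries. Ifi47, a GTPase of the same family outside the list, rose by 1.48 ± 0.21.
The promoter of Gbp7, which held 1 ISRE core, 53 bases before the start, and 2 GAS cores, 106 and 87 bases before it, reads as follows, with the ISRE core in capitals.
Gbp7 (GRCm38.p6 chr3:142530086-142530385, plus strand): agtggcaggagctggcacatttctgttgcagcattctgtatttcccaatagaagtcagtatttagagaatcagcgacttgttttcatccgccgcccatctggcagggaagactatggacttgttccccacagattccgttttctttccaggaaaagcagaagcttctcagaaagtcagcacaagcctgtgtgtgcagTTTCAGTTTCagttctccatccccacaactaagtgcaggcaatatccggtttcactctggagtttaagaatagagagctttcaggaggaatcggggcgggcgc

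**Figure D2:**
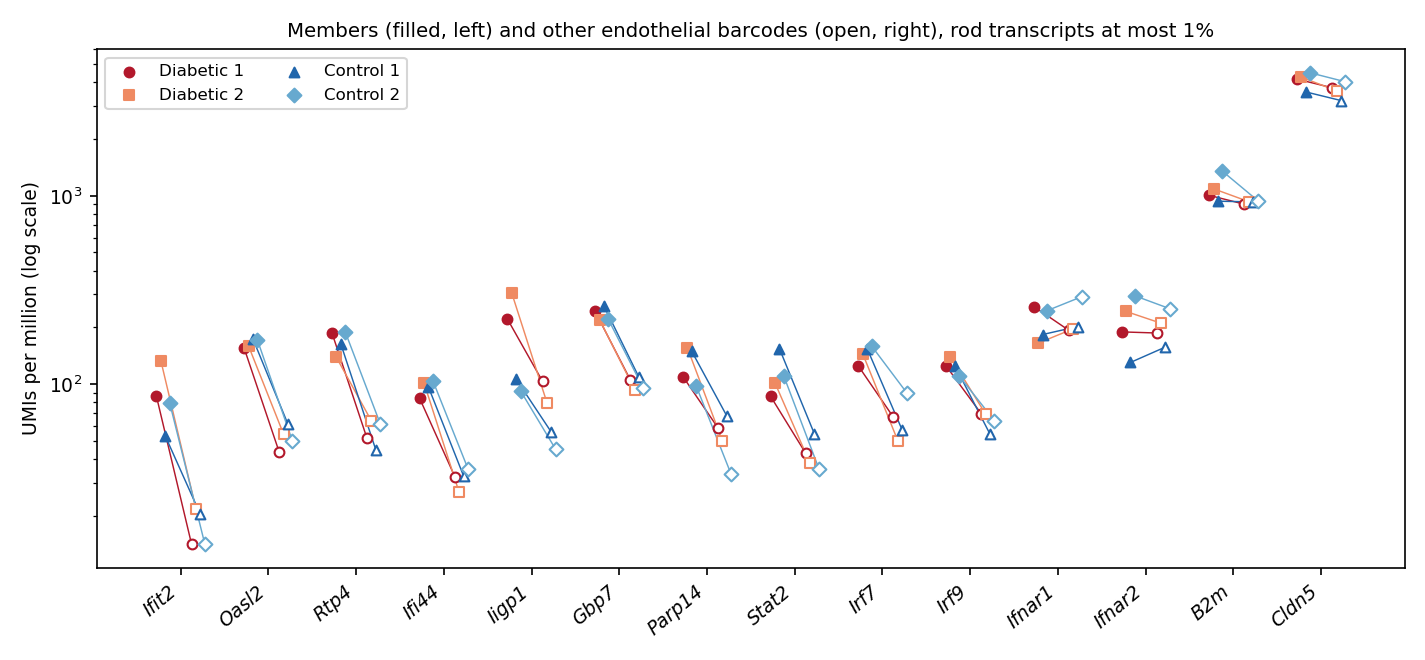
CPM (log scale) of 14 genes in members (filled symbols, left of each pair) and other endothelial barcodes (open symbols, right), 1 symbol per library, for barcodes with rod markers at most 1% of UMIs. Lines fall from members to other barcodes in all 4 libraries from Ifit2 to Irf9 and show no common direction for the receptor genes Ifnar1 and Ifnar2.

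Genes of ISG15 conjugation, ubiquitin ligation and ADP-ribosylation had 16 of 18 tested, 8 higher and none lower, and their median change was 0.87 on the log2 scale. Ube2l6, the enzyme that passes ISG15 to its targets, was at 28.0 and 57.9 CPM in Diabetic members and 48.3 and 49.1 CPM in Control members, and at 17.7 and 23.4 CPM in other endothelial barcodes of the Diabetic libraries and 13.6 and 14.2 CPM in those of the Control libraries. Its log2 fold change was 1.21 ± 0.28 (adjusted p = 0.027). The ADP-ribosyltransferase genes Parp14 (1.22 ± 0.17), Parp9 (1.08 ± 0.24) and Parp12 (1.06 ± 0.21) were all called, with Xaf1 (0.98 ± 0.13), an apoptosis-related interferon-induced gene, and the large ubiquitin ligase gene Rnf213 (0.92 ± 0.17). Among cytosolic sensors of nucleic acids, 5 of 16 were tested and 3 were higher: Ifih1, which encodes the double-stranded RNA sensor MDA5 (0.80 ± 0.19), and the HIN200 genes Ifi203 (0.96 ± 0.11) and Mndal (0.84 ± 0.14). Ifi203 and Mndal are neighbours on chromosome 1 with overlapping annotations, and reads may be shared between them.

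Signalling genes divided by role. Of 19 receptors, kinases, STATs and interferon regulatory factors 16 were tested, 4 were higher, none was lower, and the median log2 fold change was 0.08. Among the higher genes were Stat2 and Irf9, which encode parts of the ISRE-binding complex, and Irf7, a regulatory factor that is itself interferon induced. Stat2 was at 86.1 and 101 CPM in members and 42.9 and 37.9 CPM in other endothelial barcodes of the Diabetic libraries, and at 154 and 110 CPM in members and 54.3 and 35.6 CPM in other endothelial barcodes of the Control libraries. The classes did not overlap (edgeR adjusted p = 0.00010). Stat2 (1.30 ± 0.18), Irf7 (1.14 ± 0.16) and Irf9 (0.92 ± 0.15) were higher in members in 4 of 4 libraries.
The receptor genes were not called with the rod limit. Ifnar1 averaged 213 ± 45.8 CPM in members and 221 ± 47.4 CPM in other endothelial barcodes (SD, n = 4 each), a log2 fold change of -0.02 ± 0.13. Ifnar2 averaged 214 ± 70.6 CPM in members and 202 ± 39.7 CPM in other endothelial barcodes, a log2 fold change of 0.05 ± 0.11. With all barcodes both were called higher in members, at 0.80 ± 0.20 for Ifnar1 (adjusted p = 0.011) and 1.11 ± 0.16 for Ifnar2 (adjusted p = 0.0018), so that both calls, and the sign for Ifnar1, depended on the rod limit. Jak1, a JAK kinase of this pathway, was at -0.19 ± 0.16. Irf1, a regulatory factor of the type II response, was at 0.14 ± 0.20, and neither gene was called with the rod limit. Irf1 was called with all barcodes (1.33 ± 0.29, adjusted p = 0.0065).

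Few genes of antigen presentation were called. Of 21 listed genes of MHC class I and peptide loading 19 were tested, 2 were higher and none was lower, and the median change was 0.32 on the log2 scale. The called genes were the immunoproteasome subunit gene Psmb8 (0.63 ± 0.13, adjusted p = 0.0082) and the proteasome activator gene Psme2 (0.58 ± 0.13, adjusted p = 0.030). B2m, the light chain of MHC class I, averaged 1095 ± 181 CPM in members and 926 ± 17.5 CPM in other endothelial barcodes, a log2 fold change of 0.20 ± 0.09 that was not called. The heavy chain genes H2-D1 (0.17 ± 0.08) and H2-K1 (-0.02 ± 0.10) were not called. With all barcodes 19 of 19 of these genes were called higher, beside 17.7% of all genes.

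Of 15 chemokine and adhesion genes 9 were tested and 3 were higher: Cd274, which encodes the checkpoint ligand PD-L1 (1.11 ± 0.26), and the membrane-anchored proteins Ly6e (0.37 ± 0.08) and Ly6a (0.37 ± 0.08). Endothelial identity differed little. None of 18 pan-endothelial, 17 capillary or 9 tested venous markers was called in either direction, with median log2 fold changes of 0.10, -0.03 and -0.00. Of 10 tested arterial markers 1, the matrix gene Mgp (-0.70 ± 0.15), was lower and the median was -0.33, after the choice of barcodes had removed those rich in other arterial genes. The tight junction gene Cldn5, which is part of the endothelial rule, was at 0.15 ± 0.05 and not called. None of 13 heat shock genes or 16 immediate early genes, which respond to tissue dissociation, was called with the rod limit, with medians of 0.01 and 0.22. With all barcodes 16 of 16 immediate early genes were called higher in members (median 1.22), and of the heat shock genes 7 were higher and 1 lower (median 0.62).

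**Figure D3:**
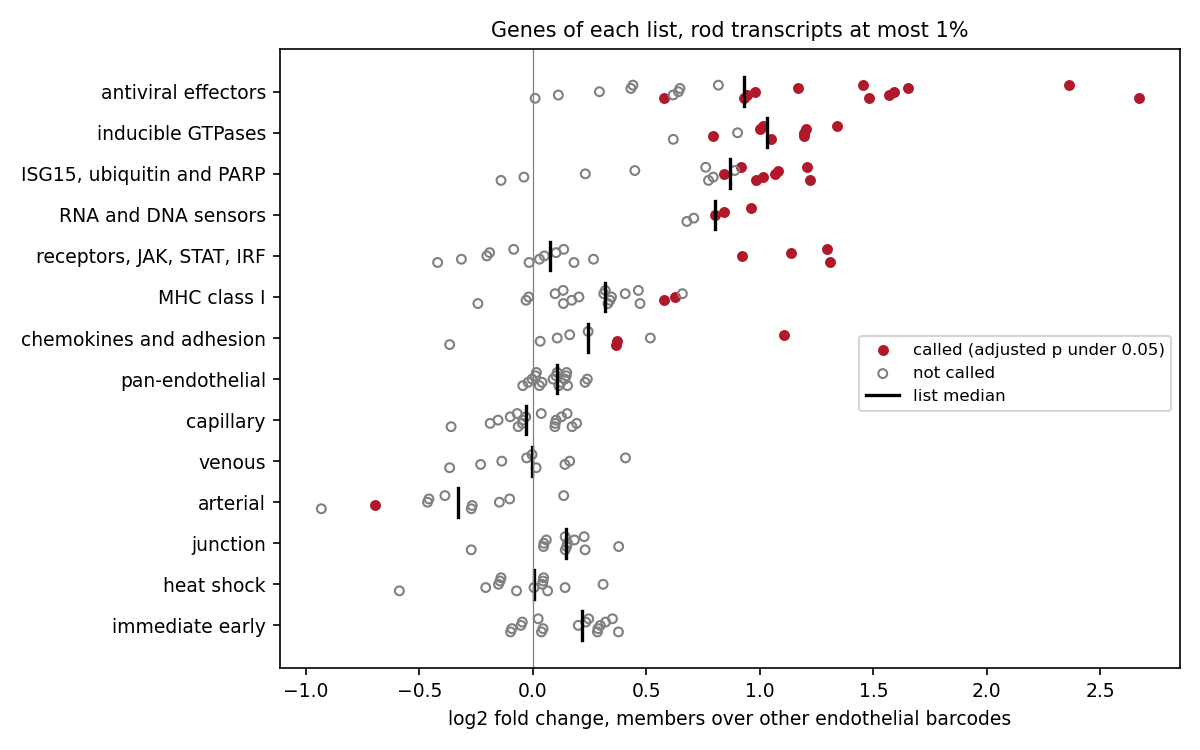
Log2 fold changes of members over other endothelial barcodes for each tested gene of 14 lists, with rod markers at most 1% of UMIs. Filled points are genes with an adjusted p under 0.05, and black bars are list medians, which lie at 0.93 for antiviral effectors, 1.03 for GTPases and -0.03 for capillary markers.

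Among the 13 genes lower in members, mitochondrially encoded transcripts and ribosomal RNA fell by small amounts in 4 of 4 libraries, such as mt-Nd1 (-0.32 ± 0.06, with 3008 ± 232 CPM in members and 3694 ± 390 CPM in other endothelial barcodes) and mt-Rnr2 (-0.23 ± 0.03). With all barcodes that passed the filters, the median mitochondrial share was 2.79% in members and 3.09% in other endothelial barcodes of Diabetic 1, 3.51% and 4.13% in Diabetic 2, 5.44% and 6.01% in Control 1, and 3.96% and 6.30% in Control 2. Transcripts of other retinal cells were also lower, among them the cone gene Gngt2 (-0.93 ± 0.22) and the crystallin gene Crybb2 (-1.96 ± 0.38). Gngt2 was lower in members in 3 of 4 libraries. Also lower were Cebpb, Trpm3 and the arterial gene Mgp. The part of carried-over RNA in these decreases was not tested.

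Across the promoters of the 47 raised genes, 37 had an entry and 15 of these (40.5%) held an ISRE core, against 4.02% of 5271 tested genes with an entry. The GAS core was in 7 of the 37 (18.9%) and in 7.53% of the tested genes. Ifit2, Oasl2, Ifi44 and Cmpk2 were raised with no ISRE core in the 300 bases searched, which says only that those letters are not in the window. The share among raised genes is a description, since they were chosen by an interferon rule.

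The level of the other effectors was set beside the rule score. The 34 antiviral effectors that are not rule genes were summed in endothelial barcodes binned by score. The sum is weighted to abundant genes. In members of score 4 to 7, without the rod limit, Ifitm3 stood at 1542.5 CPM and Ifitm2 at 447 CPM, whereas Mx1 and Oas3 had 0 UMIs. At a score of 0 the 34 effectors stood at 2892 and 3056 CPM in the Diabetic and 2591 and 2316 CPM in the Control libraries. At a score of 2 to 3, outside the rule, they stood at 3687 and 2939 CPM in the Diabetic and 3303 and 3235 CPM in the Control libraries. At 4 to 7, the lowest band of members, they stood at 4208 and 4610 CPM in the Diabetic and 4185 and 4109 CPM in the Control libraries. The lowest band of members lay above the band just outside the rule in each library. At 8 to 15 they stood at 5366 and 4411 CPM in the Diabetic and 4158 and 4006 CPM in the Control libraries, which was above the 4 to 7 band in Diabetic 1 and below it in the other libraries. At 16 or more, with 10, 8, 1 and 5 barcodes, they stood at 6902 and 9748 CPM in the Diabetic and 3129 and 6136 CPM in the Control libraries, and the single barcode of Control 1 lay below the lower bands of members. The level thus did not rise at each step of the score. Deeper barcodes reach higher scores, and the median depth was 7562, 7823, 7351 and 7048 UMIs in this band against 2667, 3180, 2943 and 3587 UMIs at a score of 0. Closer bands are given without the rod limit. Barcodes of score exactly 3 stood at 2786 and 2928 CPM in the Diabetic and 3532 and 3729 CPM in the Control libraries. Members of score exactly 4 stood at 4091 and 4196 CPM in the Diabetic and 3212 and 4538 CPM in the Control libraries. Only in Control 1 were they lower. Barcodes outside with 4 or more UMIs in 1 gene stood at 4096 and 5581 CPM in Diabetic libraries. In Control libraries they stood at 3119 and 2568 CPM.

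**Figure D4:**
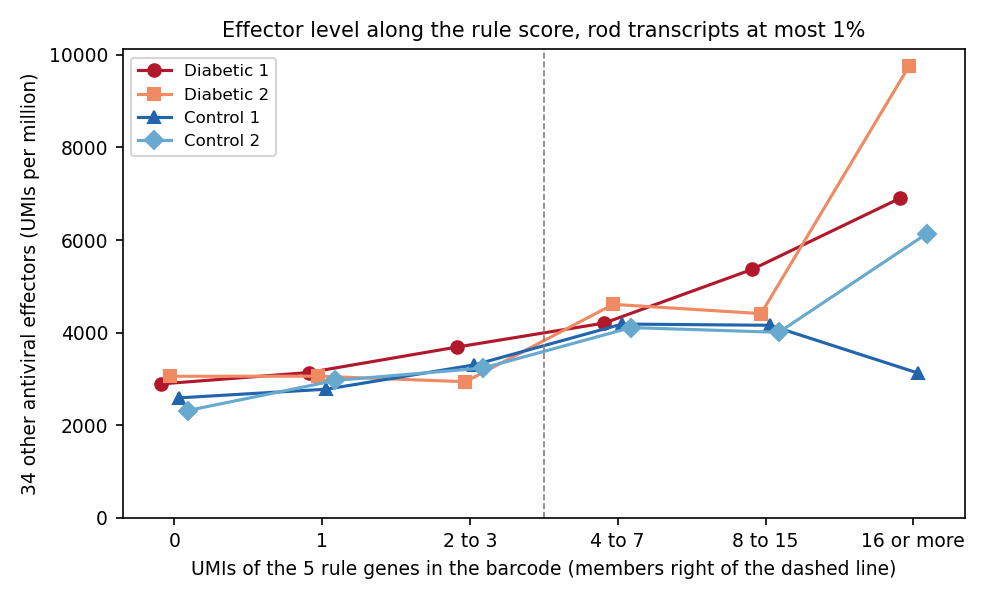
Summed level of 34 antiviral effectors outside the rule (CPM) in endothelial barcodes binned by their UMIs of the 5 rule genes, 1 line per library, with rod markers at most 1% of UMIs. Levels lie between 2316 and 3056 at a score of 0 and between 4109 and 4610 in the lowest band of members, and the highest band holds 1 to 10 barcodes per library. The sum is weighted to abundant genes such as Ifitm3.

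Within members some genes had higher levels in the higher score bands and others did not. These genes were picked after their values were seen, and the values are sums over members of all libraries without the rod limit, in 144 members of score 4 to 7, 85 of 8 to 15 and 27 of 16 or more. Ifit2 was at 24.7, 100.1 and 222 CPM in these bands, Isg20, an exonuclease that degrades RNA, at 16.5, 17.0 and 91.2 CPM, and Oasl1 at 6.87, 23.4 and 43.6 CPM. Gbp3 was level at 172, 160 and 143 CPM, and Gbp7 at 209, 236 and 190 CPM. Ly6e was likewise level at 1666, 1891 and 1749 CPM. Other GTPases were higher in the top band than in the lowest, with Iigp1 at 172, 181 and 262 CPM, Gbp2 at 100.4, 76.6 and 194 CPM and Gbp5 at 45.4, 51.1 and 87.3 CPM. A few barcodes weigh on these top values. The Diabetic 2 member of score 88 held 71 UMIs of the listed GTPases and the Diabetic 1 member of score 47 held 43. Gbp5 rested on 22 UMIs in 6 of the 27 members. The top band includes 1 Control 2 member of 60139 UMIs, which weighs on its pooled values.

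Among members, nearly all UMIs of the chemokines Cxcl9, Cxcl10 and Cxcl11, which attract T cells through the receptor CXCR3, came from 1 barcode. Members of scores under 16 had no UMI of any of them, and the 27 members of 16 or more had 60 UMIs of Cxcl9, 76 of Cxcl10 and 17 of Cxcl11. A single member of Diabetic 2, which also had the highest rule score of 88 and 3618 UMIs in all, held 60, 75 and 17 of these. The remaining Cxcl10 UMI was in the member of Diabetic 1 with a score of 47. The Diabetic 2 barcode held 71 UMIs of inducible GTPases, 7 of Flt1, 3 of Cdh5, 1 of Pecam1, none of Cldn5 and 2 of microglial markers. A barcode of Control 2 left out for arterial or venular genes had a score of 54 and 18 UMIs of Cxcl10, so high chemokine counts also occurred in a Control library. Barcodes outside the endothelial rule also held these transcripts, such as a Diabetic 2 barcode with a score of 220 and 24 UMIs of Cxcl10. That barcode had 156 UMIs of Cldn5, 18 of Cdh5, 36 of Pecam1 and 133 of Flt1. It therefore carried endothelial genes and was left out by the pericyte or Rlbp1 limit. Diabetic 1 barcodes with 104, 251 and 499 UMIs of microglial markers held 10, 9 and 8 UMIs of Cxcl10. The summed Cxcl10 level, without the rod limit, of 208 CPM in Diabetic 2 members, against 1.63 CPM in Diabetic 1 and 0 in both Control libraries, therefore rests on 1 cell barcode and was not tested.

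The comparison the design implies within members was Diabetic against Control. With 2 libraries per group, edgeR called 0 of 5571 genes (0%), with 316 at an unadjusted p under 0.05, and DESeq2 called 0, with 81 at that level. Rod transcripts differed between these libraries as well, as given above. In members with rod markers at most 1% of UMIs, 5 of 5128 genes were higher (0.0975%) and 6 were lower (0.117%) in Diabetic libraries, 0.215% in all, and DESeq2 called 2 and 6. DESeq2 gave no adjusted p for 4872 of these 5128 genes, and only 4 of its calls were shared with edgeR. Leaving out 1 library gave 161 calls without Control 1, 27 without Control 2, 119 without Diabetic 1 and 4 without Diabetic 2 in all members, and with the rod limit between 20 and 66, so that the count rests on which libraries enter. The names and values below are therefore a description of 4 libraries.

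No interferon gene was called between groups in either set of members. The 10 tested GTPases had positive log2 fold changes in 10 of 10 cases with all members (median 0.73). With the rod limit 7 of 10 were positive (median 0.67). Over all genes tested, 2667 of 5571 were positive with all members (median -0.02) and 2561 of 5128 with the rod limit. In other endothelial barcodes, without the rod limit, 8 of 12 tested GTPases were positive (median 0.16). With all members, Iigp1 was at 199 and 317 CPM in Diabetic members and 99.5 and 68.1 CPM in Control members, a log2 fold change of 1.57 ± 0.35 (edgeR adjusted p = 0.80). With the rod limit it was 1.35 ± 0.26 (adjusted p = 0.055). Gbp5 was at 62.0 and 83.4 CPM in Diabetic members and 24.9 and 21.3 CPM in Control members, also with all members. The groups did not overlap for these genes, and neither was called. An order without overlap is common with 2 libraries per group, and its share over all genes was not counted. In other endothelial barcodes, without the rod limit, Iigp1 was at 42.1 and 39.8 CPM in the Diabetic and 17.2 and 26.5 CPM in the Control libraries, the same order of groups. With all members, Isg20 was at 39.1 and 41.7 CPM in Diabetic members and 8.29 and 8.51 CPM in Control members, where the Control values rest on 2 UMIs in each library. The Control 2 levels with all members include 1 barcode of 60139 UMIs among 235015, which weighs on them. On the Diabetic side, 1 member of Diabetic 2 held 71 UMIs of the listed GTPases, and 1 member of Diabetic 1 held 43. The part of these barcodes in the group differences was not tested. The effectors Oasl2, Rtp4 and Ifi44 had rod-limited log2 fold changes of -0.16, -0.12 and -0.15. The antiviral list had a median of 0.11 with all members and -0.12 with the rod limit, so its direction depended on that limit. Ifi27l2a was at -0.85 ± 0.50 with all members and -1.46 ± 0.45 with the rod limit (adjusted p = 0.81 and 0.35).

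**Figure D5:**
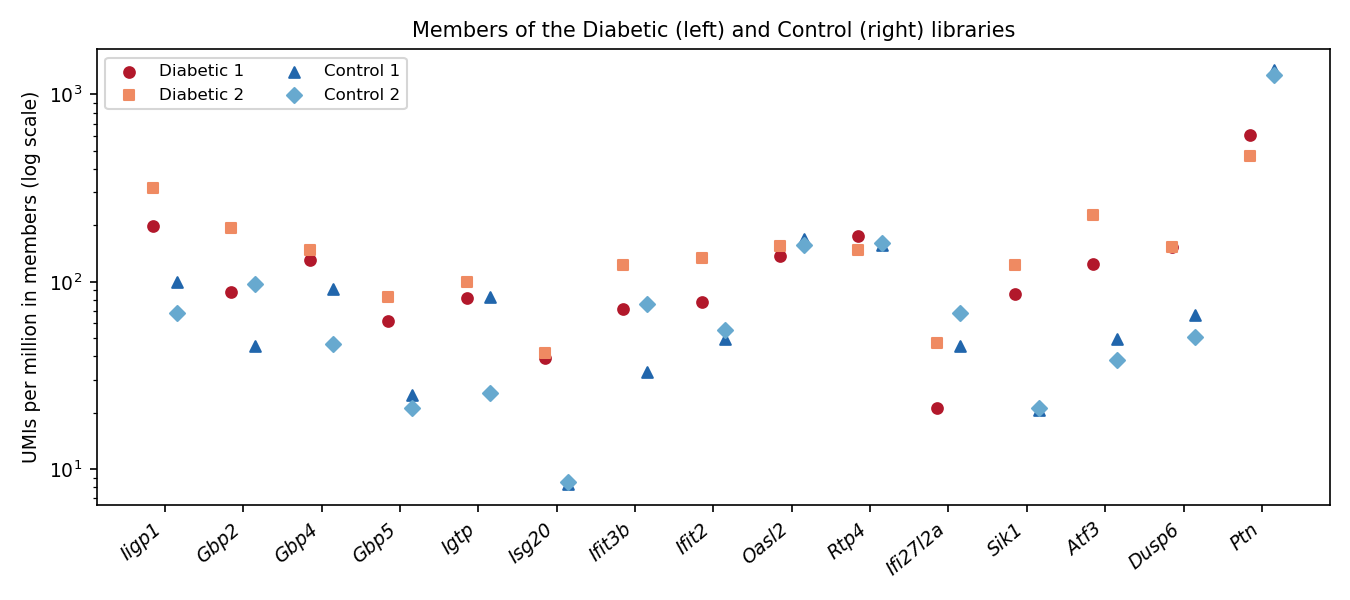
CPM (log scale) in all members, without the rod limit, of the Diabetic libraries (left of each pair) and the Control libraries (right), for 15 chosen genes. The text gives Sik1 and Ptn with the rod limit. Atf3 and Dusp6 are shown and are not described in the text. Iigp1, Gbp5, Isg20 and Sik1 have both Diabetic libraries above both Control libraries, Ptn has them below, and Oasl2 and Rtp4 overlap. Orders without overlap are common with 2 libraries per group, and none of the 15 genes was called with all members.

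The genes called with the rod limit belonged to none of the interferon lists. Those higher were Rps4l, Sik1, Apold1, Fos and S100a6. Sik1, which encodes a salt-inducible kinase, was at 112 and 127 CPM in Diabetic members and 24.1 and 30.7 CPM in Control members (2.09 ± 0.38, adjusted p = 0.037). The immediate early gene Fos was at 2139 and 3215 CPM in Diabetic members and 1399 and 1000.4 CPM in Control members (1.13 ± 0.21). Apold1, an endothelial early-response gene, was at 448 and 678 CPM in Diabetic members and 212 and 209 CPM in Control members. Among all members, 16 of 16 dissociation-related immediate early genes had a positive log2 fold change, with a median of 0.54 and none called. With the rod limit 14 of 16 were positive, with a median of 0.39, and Fos was called. Lower genes were the growth factor gene Ptn, the basement membrane gene Hmcn1, the heat shock genes Hsph1 and Dnaja1, and the mitochondrial ribosomal RNAs mt-Rnr1 and mt-Rnr2. Ptn was at 687 and 449 CPM in Diabetic members and 1356 and 1731 CPM in Control members (-1.46 ± 0.21, adjusted p = 0.022). Hsph1 was at 4.30 CPM in Diabetic 1, with no UMI in Diabetic 2, and at 53.1 and 85.9 CPM in Control members. The heat shock list had 3 of 13 genes with a positive fold change in all members and a median of -0.46. Over all genes tested in all members, 2667 of 5571 were positive. Other endothelial barcodes, without the rod limit, had 15 of 16 immediate early genes (median 0.62) and 2 of 13 heat shock genes (median -0.54) positive. The immediate early and heat shock genes differ with handling of tissue as well, and their part was not tested.

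These group differences were not shown to be particular to the members. The interaction of group and class, which tests whether the Diabetic effect differed between members and other endothelial barcodes, called 0 of 9806 genes in edgeR (220 at an unadjusted p under 0.05) and 0 in DESeq2, and 0 with the rod limit (372 at an unadjusted p under 0.05). Without Control 1 the interaction called 83 genes, without Control 2 it called 10, without Diabetic 1 it called 4 and without Diabetic 2 it called 0. In other endothelial barcodes the Diabetic libraries had 14 genes higher (0.11%) and 1 lower (0.00787%) of 12700, and with the rod limit 147 higher (1.59%) and 69 lower (0.747%) of 9238, 2.34% in all. Leaving out 1 library gave 44 to 592 calls there without the rod limit, with 592 without Control 2. Markers of other cell types moved with the rod-limited counts: 10 of 11 tested microglia and macrophage markers, 2 of 2 neutrophil markers and 4 of 4 erythrocyte markers were called higher in Diabetic libraries. Microglia and macrophage markers held 984 and 1500 CPM in other endothelial barcodes of the Diabetic and 109.9 and 56.9 CPM in those of the Control libraries, and in members 109.8 and 95.6 CPM in the Diabetic and 33.8 and 79.8 CPM in the Control libraries. Their part in the calls was not tested. Fos and Hsph1 had the same order of groups there without the rod limit, with Fos at 1016 and 1030.5 CPM in Diabetic and 426 and 325 CPM in Control libraries, and Hsph1 at 17.4 and 13.5 CPM in Diabetic and 51.2 and 72.9 CPM in Control libraries. Both classes come from the same 4 libraries, so this order is not independent evidence.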

How the data were processed

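UMI counts per gene and barcode were deposited by the authors for each library in 3 plain files. Cell Ranger 7.0.0 and STAR 2.7.10b are named, with the mm10 genome, in the submitters' processing notes, and the annotation is not given in the sources used here. Members and gene lists were chosen with earlier results of these data known. Barcodes were sorted by the rule given above, and counts were summed per library and class. Cells were not replicates. Sums were fitted with edgeR 4.0.16 (TMM, filterByExpr, quasi-likelihood test, Benjamini-Hochberg adjustment over all genes tested, threshold 0.05) in R 4.3.3, and DESeq2 1.42.0 was the alternative. The 5 rule genes stayed in the fits and were left out of every count of calls. They were removed before the adjustment in edgeR and after it in DESeq2. Members and other endothelial barcodes were fitted with library as a block, because both classes come from the same library. The fits were tested on simulated data. Doublets were kept, and in an alternative those ranked highest by Scrublet (scanpy 1.11.5) were removed at 0.8% per 1000 barcodes. CPM is counts per 1000000 UMIs of the class's sum, log2 fold changes are edgeR's, and SDs are over libraries. Genes named for members were the 20 highest and 8 lowest called fold changes with at least 50 CPM and the same direction in every library. Between groups, the 6 smallest p were named where fewer were called. List examples were named by size, and 12 signalling and marker genes regardless of result, and further genes after their values were seen. Rod, Müller glia, pericyte and microglia barcodes had at least 20, 10, 4 and 4 UMIs of their own markers and 0 UMIs of the 4 endothelial rule genes. Gene positions came from GENCODE M21 and promoters from RefSeq. No deposited column was left without a sample. Same-numbered libraries are not stated to share an animal, and their deviations from the group means correlated at -0.14 over 12463 genes in members. Values of some genes are not reported here.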

Additional observations from a re-analysis of the deposited data

How the results depend on the processing

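The difference in the share of members between Diabetic and Control libraries, -0.56 percentage points, ranged from -3.01 (rod markers at most 1% of UMIs, where the groups did not overlap) to -0.02 (share taken after the venular and arterial barcodes were left out). It ranged from -2.20 to 1.08 when 1 library was left out, turning positive without Control 2 (1.08) and without Diabetic 1 (0.52), and pairing same-numbered libraries as a replicate block gave -0.56. For members against other endothelial barcodes, 3022 calls became 1818 at a threshold of 6 UMIs, 60 with the rod limit and 31 with that limit in DESeq2, and 3322 without the library block. Leaving out 1 library gave 967 to 4345 calls, and 35, 46, 61 and 76 with the rod limit. For Diabetic against Control in members, 0 calls became 52 without a filter on low counts, 7 without Scrublet doublets, 11 with the rod limit, 8 with that limit in DESeq2 and 29 with the rod limit and a replicate block. The replicate block alone gave 0, and crossed pairing gave 39. With the rod limit, DESeq2 gave no adjusted p for 4872 of 5128 genes here. It gave none for 2042 of 6577 genes in members against other endothelial barcodes. Leaving out 1 library gave 4 to 161, and 20, 38, 47 and 66 with the rod limit. In other endothelial barcodes, 15 calls became 61 in DESeq2, 325 without the filter, 7 at a threshold of 3 UMIs, 6 at 10% mitochondrial UMIs, 9 without Scrublet doublets, 216 with the rod limit, 96 with it in DESeq2 and 502 with it and a replicate block. A replicate block gave 319 and crossed pairing 90, and leaving out 1 library gave 44 to 592, and 189, 278, 363 and 394 with the rod limit. For the interaction, 0 calls became 5 without the filter, 0 to 83 without 1 library and 2, 9, 9 and 14 without 1 library under the rod limit. Of single named genes, Ifnar1 turned to -0.016 with the rod limit, -0.047 with it in DESeq2 and -0.25 with it without Diabetic 1, and Ifnar2 to -0.0037 with it without Diabetic 2. Over the named genes in members against other endothelial barcodes, 604 values kept direction and side of the threshold, 61 lost the call and 4 changed sign. Between groups in members, 130 kept both and 134 passed the threshold only under an alternative. Many of these genes were named for their calls or p-values in these data, including those called with the rod limit. Both tallies therefore follow in part from that choice. The cause of these shifts was not tested. Low genes are limited by the 241153 and 235015 UMIs in members of Control 1 and Control 2.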
